A study of Mus musculus with 48 samples.

Results

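The cerebral cortex of male *APOE*4 mice was compared with that of male *APOE*3 mice after both had inhaled nPM, so that the allele was the labelled difference between the groups and the exposure was shared. The comparison held 8 of the 48 mice of the series, *APOE*3 mice 53, 56, 58 and 76 and *APOE*4 mice 23, 33, 65 and 93. Genes were included when each of the 8 mice had at least 1 read for them, which left 16861 of the 18939 genes listed. All 8 mice were *APOE*-TR, in which a human *APOE* allele replaces mouse *Apoe* at its own locus by targeted replacement, and were labelled 6 months old. They had been exposed to nPM, a nano-sized fraction of urban air pollution particles, for 5 h/day on 3 days/week over 15 weeks. The study set *APOE* allele and sex beside the response to nPM in 12 groups of 4 mice, with filtered air as the control exposure and C57BL/6J (B6) mice, labelled 4 months old and exposed for 8 weeks, as a second strain. *APOE*-TR filtered-air males and nPM females served here as other mice in which the same allele difference was measured. The sources used here do not say how many litters or cages the mice of a group came from, so p-values measure the spread between these mice only.

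*APOE* encodes a lipid-carrying protein that astrocytes secrete in the brain, and its E4 allele is the main common genetic risk factor for late-onset Alzheimer disease. Its protein delivers cholesterol to neurons through receptors of the LDL receptor family and binds amyloid-β. In a targeted replacement line the human coding sequence is read from the mouse locus, while genes elsewhere come from the mouse strains used to make and breed the line.

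Values were CPM (read counts scaled to library size) for each gene and mouse, and 95.3% to 95.7% of the low values in a mouse were whole multiples, within a tolerance of 0.02, of the value of a gene without reads, which was 0.0220 to 0.0291 CPM. Reads were therefore recovered as that multiple less 1, rounded. On that scale, library depth over the listed genes was 23.6 to 31.3 M (mega) reads in *APOE*3 mice and 23.3 to 28.6 M reads in *APOE*4 mice, so depth overlapped between alleles. *Ddx3y*, on the Y chromosome, stood between 30.0 and 36.2 CPM, and *Xist*, which female cells express, was at most 0.277 CPM. Reads assigned to mouse *Apoe* came to 10.1 to 12.5 CPM in *APOE*4 and 10.7 to 12.2 CPM in *APOE*3 mice, and this row does not tell the human alleles apart. Markers of cortical neurons, such as *Camk2a* and *Slc17a7*, were present in all mice, and the first principal component (25.8% of the variance) placed *APOE*3 mice between −15.9 and −0.0785 and *APOE*4 mice between 4.32 and 14.7. Pairs of mice correlated at 0.993 to 0.996 across alleles, 0.994 to 0.997 within *APOE*3 and 0.995 to 0.997 within *APOE*4, so these ranges overlapped. Choroid plexus RNA was high in 2 mice, with *Ttr* at 972 CPM in *APOE*3 mouse 76 and 911 CPM in *APOE*4 mouse 33 against 9.51 to 64.8 CPM in the others.

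At 5% FDR, 84 of 16861 genes (0.498%) differed between the alleles in limma with Benjamini-Hochberg adjustment over all genes tested. Of these, 31 (0.184%) were higher and 53 (0.314%) lower in *APOE*4. The median absolute log2 difference over all genes was 0.067, and 1669 genes had an unadjusted p under 0.05. In each of the 84 genes the 4 *APOE*4 values lay entirely above or below the 4 *APOE*3 values, as was the case for 5.66% of all genes tested. The gene just inside the threshold was *Jam2* (log2 difference −0.26, adjusted p = 0.0480) and the gene just outside was *Hspa12b* (−0.45, adjusted p = 0.0511). All log2 differences are *APOE*4 minus *APOE*3 on the scale of log2(CPM + 0.5), which understates the change of genes with few reads.

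Most of the genes with the smallest p, *Gm14296* and *2210418O10Rik* first, belonged to a cluster of genes with related sequences on distal chromosome 2, and those of the cluster that passed were all lower in *APOE*4. Of those, 4 have *Zfp* symbols, given for zinc finger proteins, a class that usually binds DNA, while the symbols of the others name no domain. Between the first and last cluster gene called, from 175275125 to 177957289 on chromosome 2 (mm10), 23 genes are listed. Of these, 14 were lower at 5% FDR (0.314% over all genes tested) and 0 were higher. The median log2 difference of the 23 was −1.29, against 0.003 over all genes tested. The interval was drawn to start and end at genes called lower, so these counts and the median are a description only. Because the sequences are the reason these genes have to be read together, the 250 bases before the start are shown for 3 genes that fell and 1, *Zfp970*, that did not pass (RefSeq, GRCm38.p6, 5′ to 3′). Capitals mark the longest stretch, 30 bases, found without a mismatch in all 19 of the 23 genes whose RefSeq start was within 1 base of the start in the files.
2210418O10Rik (chr2:176226315-176226564, plus strand): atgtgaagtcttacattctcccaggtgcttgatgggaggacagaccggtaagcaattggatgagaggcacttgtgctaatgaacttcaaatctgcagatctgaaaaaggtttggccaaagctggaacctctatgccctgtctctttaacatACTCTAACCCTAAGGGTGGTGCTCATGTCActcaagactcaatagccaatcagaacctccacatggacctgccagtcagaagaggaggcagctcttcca
Zfp967 (chr2:176520754-176521003, plus strand): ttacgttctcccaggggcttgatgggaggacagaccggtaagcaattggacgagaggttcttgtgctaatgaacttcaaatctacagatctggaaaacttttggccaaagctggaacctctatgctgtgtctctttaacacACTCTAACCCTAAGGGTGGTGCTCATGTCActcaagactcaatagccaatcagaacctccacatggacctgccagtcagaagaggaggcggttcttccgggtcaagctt
Gm14434 (chr2:176486750-176486999, minus strand): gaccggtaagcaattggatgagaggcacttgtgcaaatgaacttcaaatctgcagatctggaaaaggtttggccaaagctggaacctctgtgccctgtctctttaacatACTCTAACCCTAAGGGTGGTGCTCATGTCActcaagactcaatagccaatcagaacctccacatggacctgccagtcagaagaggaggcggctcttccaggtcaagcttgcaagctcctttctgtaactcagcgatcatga
Zfp970 (chr2:177464492-177464741, plus strand): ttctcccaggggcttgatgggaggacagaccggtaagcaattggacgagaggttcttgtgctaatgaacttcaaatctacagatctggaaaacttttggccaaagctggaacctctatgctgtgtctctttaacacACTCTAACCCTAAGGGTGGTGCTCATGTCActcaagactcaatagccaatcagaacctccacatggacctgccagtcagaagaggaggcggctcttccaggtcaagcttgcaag
That 30-base stretch stood in 32 of 32851 RefSeq windows of the same length on either strand (0.0974%). The window of *Zfp967* was identical to that of *Zfp966*, and the window of *Gm14434* was identical to those of *Gm4724*, *Gm14308* and *0610010B08Rik*. *Zfp967* and *Zfp970*, shown above, shared 243 of 250 bases, and over all 171 pairs the number of identical bases ranged from 164 to 250 with a median of 215. The 5 letters CCAAT (or ATTGG on the other strand) occurred in all 19 windows and in 33.8% of all RefSeq windows. The 19 windows were those of 13 genes that fell and 6 that did not pass. The 30-base stretch was chosen as common to all 19, so it could not separate them. CCAAT, present in all 19, did not separate them either.

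*Gm14296* (chr2:176892509-176927814) was at 16.7, 18.5, 19.7 and 20.7 CPM in *APOE*3 mice and at 0.336, 0.385, 0.212 and 0.349 CPM in *APOE*4 mice. The log2 difference was −4.56 (SE 0.10, adjusted p = 1.41e-09 from limma), and no *APOE*4 mouse had more than 13 reads where *APOE*3 mice had 574 to 898. *2210418O10Rik* (chr2:176226565-176261873), whose upstream sequence heads the list above, was at 16.9, 19.0, 22.2 and 20.7 CPM in *APOE*3 and at 0.433, 0.412, 0.424 and 0.232 CPM in *APOE*4 mice. Both genes had few counted reads in every *APOE*4 mouse and similar levels in every *APOE*3 mouse. The log2 difference of *2210418O10Rik* was −4.53 (SE 0.11, adjusted p = 2.26e-09 from limma). Each was the gene whose transcript shared the most 50-base windows with the other in GENCODE M21, with 56.1% of the windows of *Gm14296* and 100% of those of *2210418O10Rik* found in another gene.

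*Zfp967* (chr2:176521004-176533822) was at 3.77, 3.48, 3.47 and 3.53 CPM in *APOE*3 mice and 0.913, 0.742, 0.919 and 0.872 CPM in *APOE*4 mice. Its log2 difference was −1.58 (SE 0.09, adjusted p = 7.45e-06 from limma), so in contrast to *Gm14296* a clear signal remained in all *APOE*4 mice. *Gm14434* (chr2:176470369-176486750) showed the same partial loss, with 11, 8.66, 11.2 and 9.90 CPM in *APOE*3 and 3.39, 3.63, 3.44 and 3.31 CPM in *APOE*4 mice (log2 difference −1.43, SE 0.09). The next steepest falls were those of *Gm14305* (5.36 ± 0.669 to 1.06 ± 0.225 CPM, SD, n = 4; log2 difference −1.91) and *Gm14295* (7.26 ± 1.11 to 1.65 ± 0.101 CPM; −1.84). *Zfp966*, *Zfp965*, *Zfp973*, *Gm4724*, *Gm14308*, *Gm14440* and *0610010B08Rik* had log2 differences between −1.63 and −1.10, and *Gm14326*, at the distal end, fell by 0.42 on the log2 scale. Of the 9 genes that did not pass, *Gm14288*, *Gm6710* and *Gm14405* lay among those that fell. *Gm14403*, *Zfp970*, *Gm14322*, *Gm14325*, *Gm14327* and *Zfp972* lay side by side in the distal part, between *Gm14296* and *Gm14326*. *Zfp970* was at 13.0 to 14.4 CPM in *APOE*3 and 11.5 to 13.1 CPM in *APOE*4 mice (log2 difference −0.15, adjusted p = 0.488), and *Gm14403* at 7.31 to 8.54 and 7.28 to 9.78 CPM (−0.01, adjusted p = 0.988 from limma). The groups of both genes overlapped. Reads that map to more than 1 copy were not counted by the authors, and in the 14 genes that fell a median of 97.2% (range 56.1% to 100%) of 50-base transcript windows also stood in another gene, against 86.3% in the 9 others. Values of single members are therefore uncertain, and a shift of reads between copies was not tested.

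**Figure D1:**
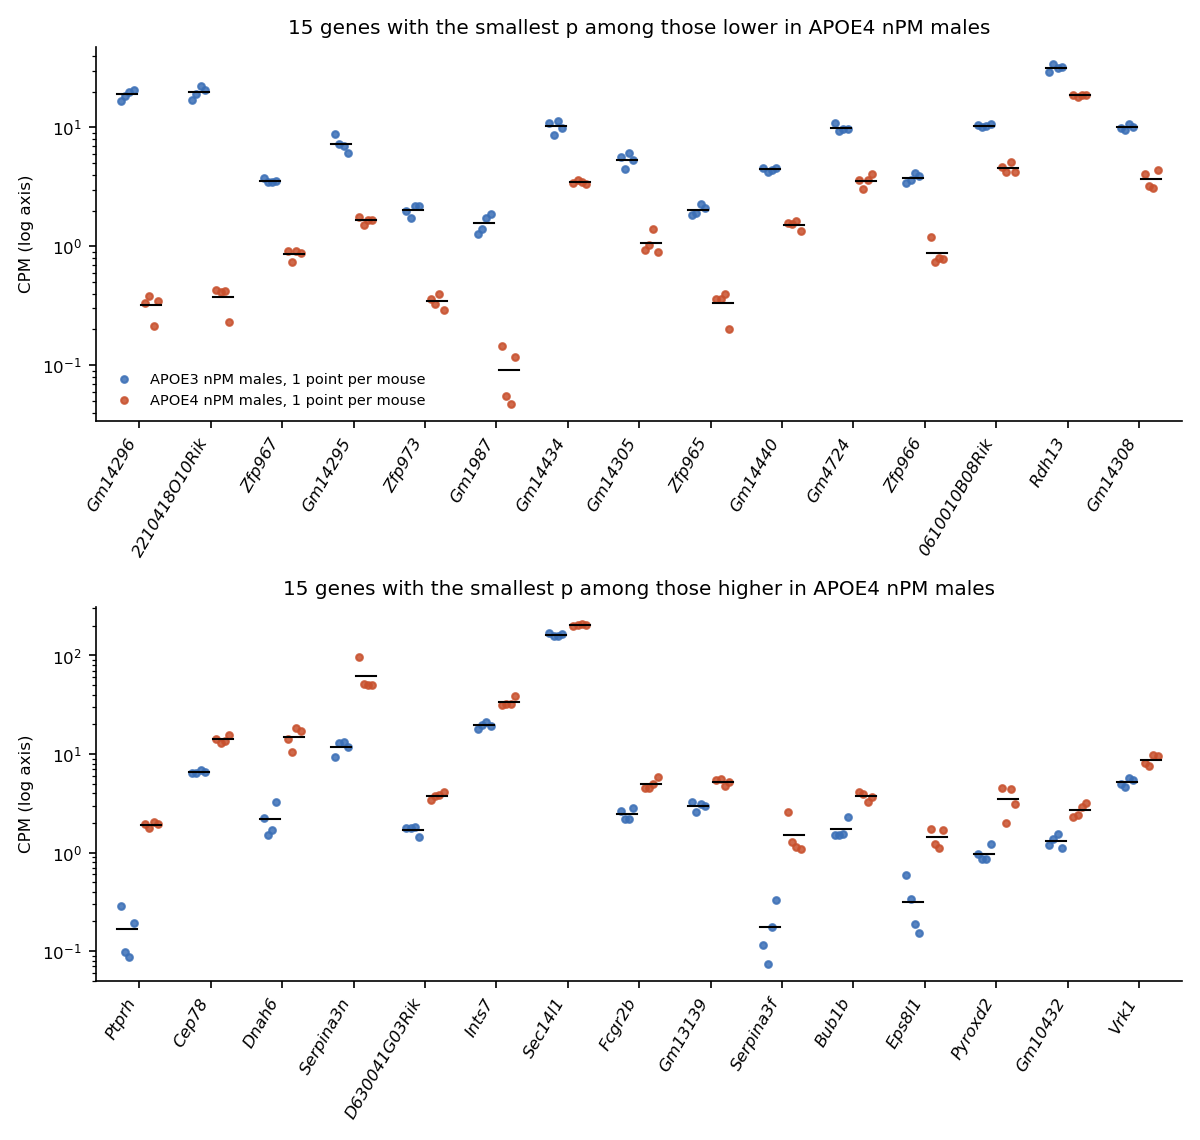
CPM per mouse on a log axis for the 15 genes with the smallest p in each direction, with *APOE*3 mice in blue, *APOE*4 mice in red and a black line at the mean of 4. *Gm14296* lies at 16.7 to 20.7 CPM in *APOE*3 and at 0.212 to 0.385 CPM in *APOE*4 mice, and *Serpina3n* reaches 95.9 CPM in *APOE*4 mouse 23.

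Among the listed genes that rose was *Serpina3n* (chr12:104406708-104414330), which encodes a secreted serine protease inhibitor known from reactive astrocytes. It was at 9.33, 13.0, 13.2 and 11.7 CPM in *APOE*3 mice and at 95.9, 50.9, 50.04 and 49.7 CPM in *APOE*4 mice. *APOE*4 mouse 23 stood apart above the other 3, which lay close together, and all 4 were above every *APOE*3 mouse. The log2 difference was 2.29 (SE 0.19, adjusted p = 0.000121 from limma). Relatives that lie beside it on chromosome 12 did not move as a block. *Serpina3f* was at 0.0736 to 0.334 CPM in *APOE*3 and at 1.07 to 2.57 CPM in *APOE*4 mice (log2 difference 1.54, adjusted p = 0.00508 from limma). *Serpina3h* went the other way, with 1.36, 1.37, 1.51 and 3.06 CPM in *APOE*3 and 0.145 to 0.216 CPM in *APOE*4 mice (log2 difference −1.72, adjusted p = 0.000964 from limma). *Serpina3g* had a log2 difference of 0.10 (adjusted p = 0.914), and *Serpina3m*, which failed the read filter, is given with the genes outside it. Of the SERPINA3 and SERPINA1 genes listed, 12 were found and 4 tested, 2 of which rose and 1 fell. The highest value of *Serpina3f* and of *Serpina3m* was also that of mouse 23. Other reactive astrocyte genes did not pass, and *Serpina3n* was the 1 gene called of 20 tested in that list, whose median was −0.15 (*Gfap* −0.14, *Vim* −0.16, *Cp* −0.28). The most negative value in that list, and in the complement list, was that of complement *C3*, at 3.65, 0.442, 0.395 and 3.50 CPM in *APOE*3 and 0.240, 0.192, 0.519 and 0.145 CPM in *APOE*4 mice (log2 difference −1.34, SE 0.48, adjusted p = 0.386 from limma). *APOE*3 mice 53 and 76 were high and the other 2 *APOE*3 mice overlapped with *APOE*4. *C3* passed in filtered-air males (−1.43, adjusted p = 0.0382 from limma) and in nPM females (−1.82, adjusted p = 0.00594 from limma). Between nPM and filtered-air males its allele difference changed by 0.08 (SE 0.60).

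Genes outside the lists also rose. *Dnah6* (chr6:73017606-73221632), an axonemal dynein heavy chain of motile cilia, was at 2.23, 1.52, 1.69 and 3.25 CPM in *APOE*3 and at 14.3, 10.4, 18.5 and 16.9 CPM in *APOE*4 mice. Its log2 difference of 2.55 (SE 0.21, adjusted p = 8.1e-05 from limma) was the largest rise among tested genes. *Cep78* (chr19:15955773-15984990), a centrosomal protein, rose from 6.56 ± 0.220 to 14.1 ± 1.19 CPM (SD, n = 4; log2 difference 1.05, SE 0.07). *Bub1b*, a kinase of the spindle checkpoint, rose from 1.72 ± 0.390 to 3.75 ± 0.396 CPM (0.95), whereas the mitotic kinesin *Kif11* fell by 0.58 on the log2 scale. *Ints7* (chr1:191575636-191623691), a subunit of the Integrator complex, was at 18.1, 19.8, 21.3 and 19.2 CPM in *APOE*3 and at 31.3, 31.9, 32.2 and 39.1 CPM in *APOE*4 mice (log2 difference 0.76, adjusted p = 0.000543 from limma). The kinase *Vrk1* (0.70), the oxidoreductase *Pyroxd2* (1.40) and the SEC14-like gene *Sec14l1* (0.33) also rose, as did *Gm10432* (0.83), and so did *Gm13139* (0.72), of whose 50-base windows 82.2% stood in another gene. *Sec14l1* had the smallest of these steps and a tight one, from 162 ± 5.57 to 203 ± 4.48 CPM.

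Many called genes had another called gene within 5 Mb on the same chromosome. When called genes less than 5 Mb apart were joined, 15 runs held 62 of the 84 (73.8%), and 7 runs of 3 or more held 46. How often equally many of the tested genes would be joined in this way was not tested, so the share is a description only. The run with the most called genes after that on chromosome 2 was at the proximal end of chromosome 7, from 3421665 to 4970962. There 8 of 48 tested genes differed, 5 higher and 3 lower, against 0.498% over all genes tested. A run starts and ends at a called gene, so a share above that was fixed by how runs were drawn. There, *Ptprh* (chr7:4548614-4604042), a receptor-type tyrosine phosphatase, was at 0.290, 0.0982, 0.0878 and 0.195 CPM in *APOE*3 and at 1.95, 1.76, 2.03 and 1.95 CPM in *APOE*4 mice (log2 difference 1.87, SE 0.11, adjusted p = 8.5e-06 from limma). *Rdh13*, a mitochondrial retinol dehydrogenase nearby, went down, from 29.2, 34.1, 31.9 and 32.1 CPM to 18.7, 18.1, 18.8 and 18.9 CPM (−0.75, SE 0.06). *Eps8l1* (1.26), *D630041G03Rik* (0.96), *Tnnt1* (0.54) and *Mboat7* (0.30), an acyltransferase of phosphatidylinositol, were higher, and *Sbk3* (−0.71) and *3300002P13Rik* (−0.42) were lower. *Eps8l1* and *D630041G03Rik* overlap on opposite strands, and the sources do not say whether strand was used in counting, so their reads may not be separable. Genes of one run thus moved in both directions.

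Around *Serpina3n* on chromosome 12, 5 of 81 genes tested within 5 Mb on either side passed (6.17%), and around *Gm14296* 15 of 114 (13.2%), against 0.498% over all genes. *Serpina3n* and *Gm14296* were themselves called and are counted in these windows. A share above that over all genes was thus fixed by the choice of window and is a description only. The 106 genes tested within 5 Mb of *Apoe* itself, the replaced locus, included 0 that passed, and their median log2 difference was 0.03. A second run on chromosome 12 (55080496 to 55217169) held *Srp54a*, *Fam177a* and *1700047I17Rik2*, all higher, which are duplicated sequences with 70.5% to 100% of their windows in another gene. A run on chromosome 1 held *Rgs5*, *Ly9*, *Pigm* and the Fc receptors for IgG. The inhibitory receptor *Fcgr2b* rose from 2.64, 2.18, 2.17 and 2.84 CPM to 4.49, 4.53, 5.02 and 5.81 CPM (log2 difference 0.89, SE 0.11), and the activating receptor *Fcgr3* fell from 10.6 ± 0.885 to 7.36 ± 0.526 CPM (−0.49). On chromosome 19 *Aldh1a1*, which makes retinoic acid from retinaldehyde, fell from 17.9 ± 4.13 to 9.64 ± 0.864 CPM (−0.84) within a run that also held *Cep78*, *Mpeg1*, *Dock8*, *Tmem252* and *E030003E18Rik*. The *APOE* allele cannot be told apart here from other genetic differences between the *APOE*3 and *APOE*4 lines, since allele and line coincide in every mouse.

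**Figure D2:**
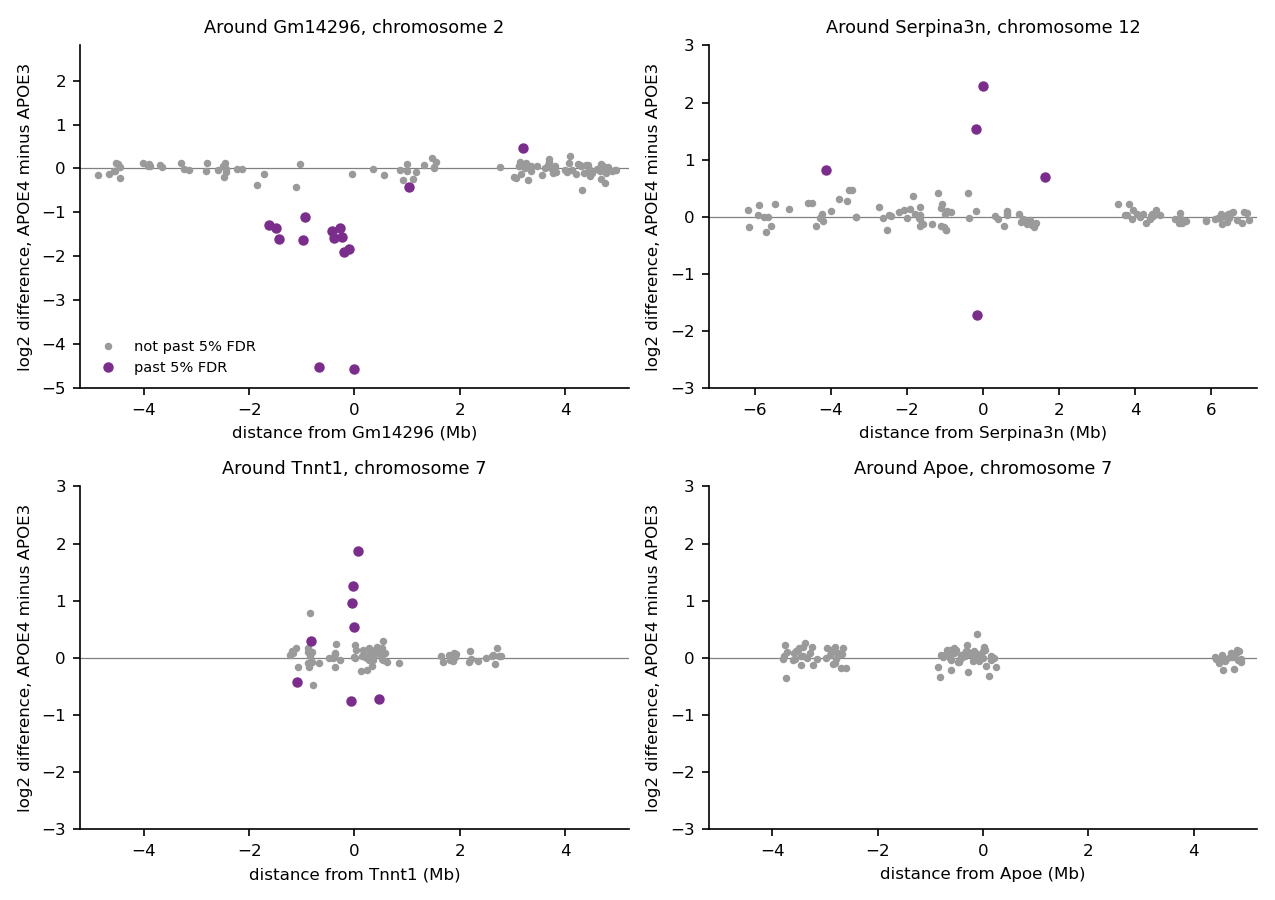
Log2 difference of each tested gene (*APOE*4 minus *APOE*3, nPM males) against its distance in Mb from *Gm14296*, *Serpina3n*, *Tnnt1* and *Apoe*, with genes past 5% FDR in purple. The first 3 genes were themselves called and have purple points near them, while around *Apoe* 0 of 106 tested genes passed.

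Markers of blood vessels had negative differences. Of 7 endothelial markers, all 7 had negative differences with a median of −0.36 (0.003 over all genes tested), and 1, *Flt1*, passed 5% FDR. *Flt1* (chr5:147562196-147725989), a receptor for VEGF, was at 31.2, 36.6, 33.8 and 37.1 CPM in *APOE*3 and at 26.9, 26, 22.2 and 19.96 CPM in *APOE*4 mice (log2 difference −0.54, SE 0.09, adjusted p = 0.0317 from limma). *Pecam1*, an adhesion molecule between endothelial cells, was at 14 ± 0.369 and 10.8 ± 1.23 CPM (−0.36, adjusted p = 0.115). Of 7 pericyte and mural cell markers, 6 were negative with a median of −0.34, and 1 passed. *Rgs5* (chr1:169655501-169695814), a regulator of G-protein signalling in pericytes, was at 88.8, 88.2, 88.7 and 94.4 CPM in *APOE*3 and at 72.6, 67.5, 58.8 and 56.5 CPM in *APOE*4 mice (log2 difference −0.50, adjusted p = 0.0105 from limma), while *Acta2* of smooth muscle had −0.58 (adjusted p = 0.116). The summed level of each list did not overlap between alleles, at 131 to 162 CPM against 96.8 to 122 CPM for endothelial and 156 to 168 CPM against 113 to 137 CPM for mural markers. The same was true of 8 of the 26 lists in all, among them astrocytes (3906 to 4130 against 3592 to 3876 CPM), complement, NFKB and NRF2, which were also lower in *APOE*4. The sums of the SERPINA and reactive astrocyte lists were higher, and both include *Serpina3n* (means of 11.8 and 61.6 CPM). Reactive astrocyte sums barely separated, at 178 to 197.06 CPM in *APOE*3 and 197.15 to 254 CPM in *APOE*4 mice, and 15 of the 20 genes tested in that list were negative. *Rgs5* lies in the chromosome 1 run with the Fc receptors, and *Flt1* in a chromosome 5 run with *Gm8615*. In bulk RNA, fewer vessel cells and less RNA per vessel cell cannot be told apart.

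Further genes known from endothelium were among those that fell, grouped here after their values were seen: the receptor *Tie1* (−0.48), the adhesion G-protein-coupled receptors *Adgrl4* (−0.42) and *Adgrf5* (−0.34), the sialomucin *Podxl* (−0.44) and the junction protein *Jam2* (−0.26). Of 23 alternative settings, 5% FDR was missed in 15 by *Jam2*, in 13 by *Tie1*, in 9 each by *Flt1* and *Adgrf5*, in 4 by *Adgrl4*, in 3 by *Podxl* and in 2 by *Rgs5*. Blood cell markers moved the other way without passing, with 8 of 8 positive, a median of 0.73 and summed levels of 22.6 to 116 CPM in *APOE*3 and 88.6 to 161 CPM in *APOE*4 mice, which overlapped. *S100a8* was at 0.111 to 0.261 and 0.259 to 1.40 CPM (adjusted p = 0.394 from limma), and *Alas2* at 0.373 to 1.55 and 1.23 to 1.84 CPM (adjusted p = 0.451 from limma). The mice had been perfused with buffered saline before dissection, and the part of residual blood in the vascular values was not tested.

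Of the immune lists, antigen presentation held 1 gene that fell and the microglial markers 0. *B2m*, the light chain of MHC class I, was at 57.3, 52.7, 55.2 and 58 CPM in *APOE*3 and at 44.3, 47.6, 43.8 and 47.0 CPM in *APOE*4 mice (log2 difference −0.28, adjusted p = 0.0213 from limma), and it missed 5% FDR under 8 of 23 settings. It was the 1 gene called of 31 in the antigen presentation and interferon list, whose median was 0.01 and whose next smallest p was that of *Ifi27* (−0.23, adjusted p = 0.343). Of genes outside the lists and picked after their values were seen, the lysosomal protease *Ctss* was at 56.5, 49.4, 46.8 and 52.7 CPM in *APOE*3 and 38.5, 34.3, 42.4 and 37.1 CPM in *APOE*4 mice (−0.42), and *Mpeg1* of phagocytes at 38.3 ± 3.86 and 23.9 ± 4.03 CPM (−0.68). The 9 microglial markers had a median of −0.07 and 0 passed, among them *Tyrobp* (8.12 ± 0.197 and 6.57 ± 0.184 CPM, −0.28, adjusted p = 0.127). Their summed levels overlapped, at 222 to 272 and 232 to 258 CPM.

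**Figure D3:**
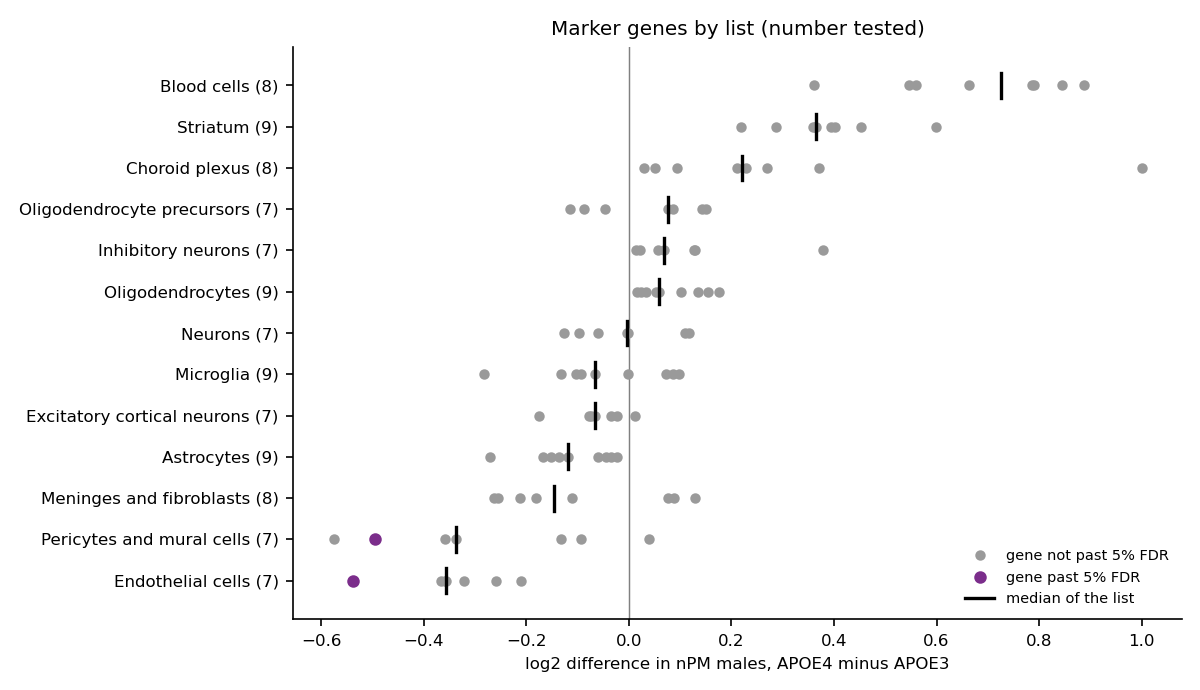
Log2 difference in nPM males (*APOE*4 minus *APOE*3) for each marker gene in 13 lists, ordered by the median of the list (black bar), with genes past 5% FDR in purple. Endothelial and mural markers lie lowest (medians −0.36 and −0.34), blood and striatal markers highest (0.73 and 0.37), and the only called genes are *Flt1* and *Rgs5*.

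In the remaining 9 marker lists, 0 genes passed. All 9 astrocyte markers were negative (median −0.12; *Aqp4* −0.27, *Slc1a2* −0.15) and all 9 oligodendrocyte markers positive (0.06; *Cnp* 0.15, *Cldn11* 0.14). Medians were 0.08 for oligodendrocyte precursors (*Olig1* 0.15, *Cspg4* 0.08), −0.003 for neurons (*Map2* −0.13, *Rbfox3* 0.11), −0.07 for excitatory cortical neurons (*Neurod6* −0.18, *Camk2a* −0.07) and 0.07 for inhibitory neurons (*Slc32a1* 0.38, *Gad1* 0.13). Meningeal and fibroblast markers had −0.15 (*Col3a1* −0.25, *Dcn* −0.26). Striatal markers, which mark tissue next to cortex, had 0.37 (*Tac1* 0.45, *Adora2a* 0.60), with summed levels of 606 to 1255 CPM in *APOE*3 and 655 to 1725 CPM in *APOE*4 mice. Choroid plexus markers had 0.22, and their sums ran from 17.2 to 1042 and 23.4 to 983 CPM, set by mice 76 and 33. The part of the dissected tissue in the differences was not tested.

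The pathways for which *APOE* and nPM are best known held no called gene in 10 of the 13 pathway lists. With 0.498% called over all genes tested, lists of 12 to 44 genes would mostly hold 0, so this is not particular to these pathways. Among 21 genes of apolipoproteins, lipoprotein receptors and cholesterol export 0 passed (median −0.04), and the sterol exporter *Abcg1* had 52.5 ± 2.20 and 58.2 ± 1.89 CPM (log2 difference 0.15, adjusted p = 0.268) and the receptor *Vldlr* 69.5 ± 2.09 and 76.3 ± 2.59 CPM (0.14, adjusted p = 0.296). These shifts were small, and both genes were picked as the 2 with the smallest p in their list. Neither gene overlapped between alleles, as was the case for 5.66% of all genes tested. Among 21 genes of cholesterol synthesis (median −0.03; *Hsd17b7* −0.24, *Sc5d* −0.13) and 21 of amyloid and tau (0.02; *Cdk5r1* 0.12, *Ncstn* −0.09), 0 passed. Of 20 complement genes 0 passed and 16 were negative (median −0.12), with *C1qb* at 38 ± 3.75 and 30.1 ± 4.30 CPM (adjusted p = 0.311) and *C3ar1* at 2.44 ± 0.258 and 1.82 ± 0.0866 CPM (adjusted p = 0.232). The same held for 24 NFKB genes (median −0.07), where *Chuk*, the IKKα kinase, was at 30.3 ± 1.13 and 25.0 ± 1.71 CPM (−0.27, adjusted p = 0.110) and the adhesion molecule *Vcam1* at 22.6 ± 2.70 and 17 ± 1.64 CPM (−0.40, adjusted p = 0.131). It also held for 44 NRF2 genes (−0.03; *Bach2* −0.22, *Nqo1* 0.23), 12 genes of the aryl hydrocarbon receptor pathway (−0.05; *Aldh3a1* −0.60), 22 immediate early genes (0.02; *Jund* 0.16, *Egr3* −0.25), 27 glutamate and GABA-A receptor subunits (−0.01; *Grik5* 0.21, *Gabrg3* −0.35) and 13 genes of the mitochondrial genome (−0.003; *ND6* 0.08, *ATP8* 0.05). That a gene missed the threshold with 4 mice per allele does not show that its levels were equal.

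Genes with reads in all mice of one allele and few in the other fall outside the rule above, and 12 of them had at least 10 reads in all 4 mice of one allele. These 12 were chosen through the allele in which they are high and so had to differ, and their values are given as a description with no test. Without the filter, limma called 87 of 18939 genes (0.459%). The noncoding transcript *AI506816* (chr5:23692261-23712668) was at 0.116, 0.0245, 0.0439 and 0.0834 CPM in *APOE*3 and at 4.09, 4.40, 7.45 and 7.79 CPM in *APOE*4 mice. *Oscar*, an immunoglobulin-like receptor in the chromosome 7 region, was at 0.0278 to 0.145 and 1.40 to 2.40 CPM, and *Serpina3m*, between *Serpina3f* and *Serpina3n*, at 0.0220 to 0.0982 and 1.28 to 3.36 CPM. *Arhgap33os* was also higher in *APOE*4 mice. Lower were 6 copies of the chemokine CCL21, a ligand of CCR7 that guides lymphocytes and dendritic cells, which lie on chromosome 4 and an unplaced contig of it. *Ccl21a* was at 0.898, 1.6, 2.04 and 1.61 CPM in *APOE*3 and at 0.0961, 0.0275, 0.0943 and 0.0872 CPM in *APOE*4 mice, and *Ccl21b* at 1.77, 2.99, 3.69 and 3.25 against 0.0240, 0.0550, 0.0707 and 0.116 CPM. *Ccl21c*, *Gm10591*, *Gm13304* and *Gm21541* showed the same loss in every *APOE*4 mouse, as did *Gm1987* on another contig of chromosome 4 among the tested genes (1.57 ± 0.276 to 0.0906 ± 0.0472 CPM, log2 difference −1.80). The CCL21 copies found in the transcripts share 71.6% to 100% of their windows with each other or with other genes. Since reads that map to more than 1 copy were not counted, values of single copies are uncertain and do not give the level of the family. *Erdr1* (1.87 ± 0.719 to 0.0389 ± 0.015 CPM) and *Mndal*, an interferon-inducible gene (0.381 ± 0.0157 to 0.153 ± 0.105 CPM), were also lower. The tested gene *G530011O06Rik*, placed like *Erdr1* at the end of chromosome Y in the files, fell from 4.64 ± 1.69 to 0.537 ± 0.122 CPM (−2.25).

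**Figure D4:**
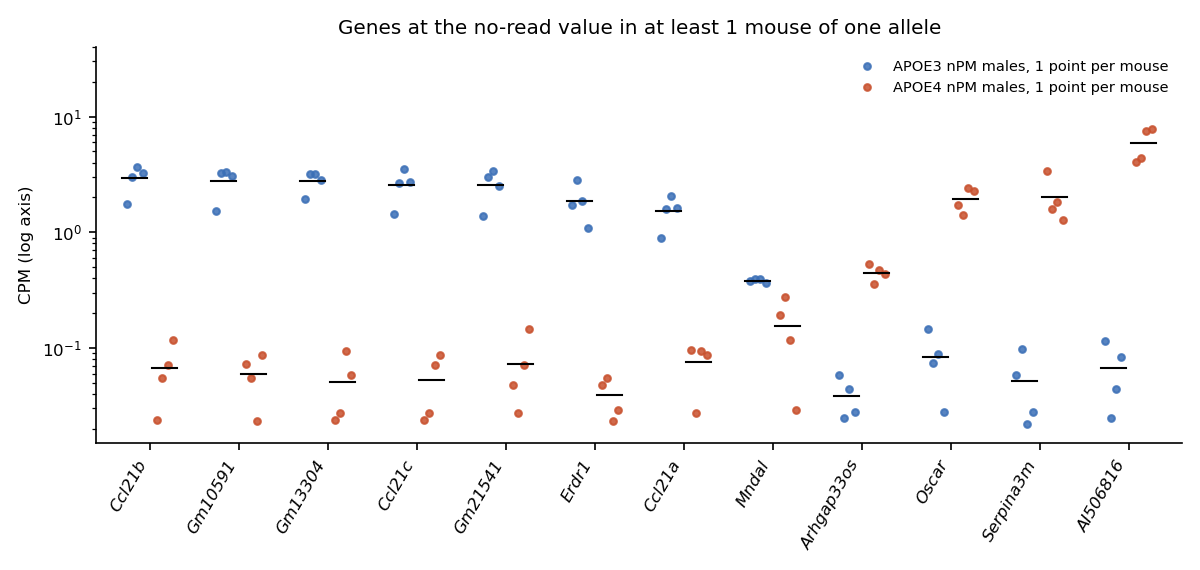
CPM per mouse on a log axis for 12 genes that were at the value without reads in at least 1 mouse of one allele, with *APOE*3 nPM males in blue, *APOE*4 nPM males in red and a black line at the mean of 4. *Ccl21a* lies at 0.898 CPM or more in all *APOE*3 mice and at most at 0.0961 CPM in *APOE*4 mice, and *AI506816* shows the opposite pattern.

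The same allele difference was measured in 2 further sets of mice that share no sample with the nPM males. In filtered-air males 74 of 16866 genes (0.439%) passed 5% FDR, 29 higher (0.172%) and 45 lower (0.267%) in *APOE*4. In nPM females 24 of 16509 (0.145%) passed, 5 higher (0.0303%) and 19 lower (0.115%). Of the 84 genes, 83 were tested in filtered-air males, where 83 had the same direction (59.2% over all genes tested) and 47 passed. In nPM females 80 were tested, 79 had the same direction (53.7% over all genes) and 20 passed. The median size of the 83 differences was 0.72 in nPM males and 0.67, in that direction, in filtered-air males, and over the 80 genes it was 0.72 in nPM males and 0.50 in females. In both, 20 of the 84 passed, 13 of them from the chromosome 2 cluster together with *Cep78*, *Dnah6*, *Ints7*, *Bub1b*, *Aldh1a1*, *Nat8f5* and *G530011O06Rik*, while 36 passed in neither. *Gm1987* was tested in neither set, and its means were 1.79 and 0.0747 CPM in filtered-air males and 2.38 and 0.0778 CPM in nPM females (*APOE*3 and *APOE*4). Most of these genes thus had the same direction in mice that had not inhaled nPM.

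*Gm14296* had a log2 difference of −4.32 in filtered-air males and −4.55 in nPM females, beside −4.56 in nPM males. *Serpina3n* was at 10.4 ± 1.09 and 59.8 ± 8.98 CPM in *APOE*3 and *APOE*4 filtered-air males (log2 difference 2.47, adjusted p = 5.16e-07 from limma) and at 10.6 ± 2.8 and 61.5 ± 42.5 CPM in nPM females (2.02, SE 0.67, adjusted p = 0.509). Its female values spread widely and did not pass, although the means were like those of males. Of the vascular genes, *Flt1* was at −0.24 and −0.18 (adjusted p = 1.00 and 0.798) and *Rgs5* at −0.28 and −0.37 (adjusted p = 0.165 and 0.427 from limma) in filtered-air males and nPM females. *Tie1* was at −0.53 and −0.33 and *Adgrl4* at −0.19 and −0.39. The 1 gene of opposite sign was *Etnppl*, an enzyme of phosphoethanolamine breakdown in astrocytes, at 0.81 in nPM males, 1.32 in filtered-air males and −0.17 in nPM females. In B6 nPM males, which differed in age and length of exposure and whose table was normalized separately, so that levels are not directly comparable, *Serpina3n* was at 14.5 ± 2.17 CPM and *Gm14296* at 5.19 ± 2.17 CPM (SD, n = 4).

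**Figure D5:**
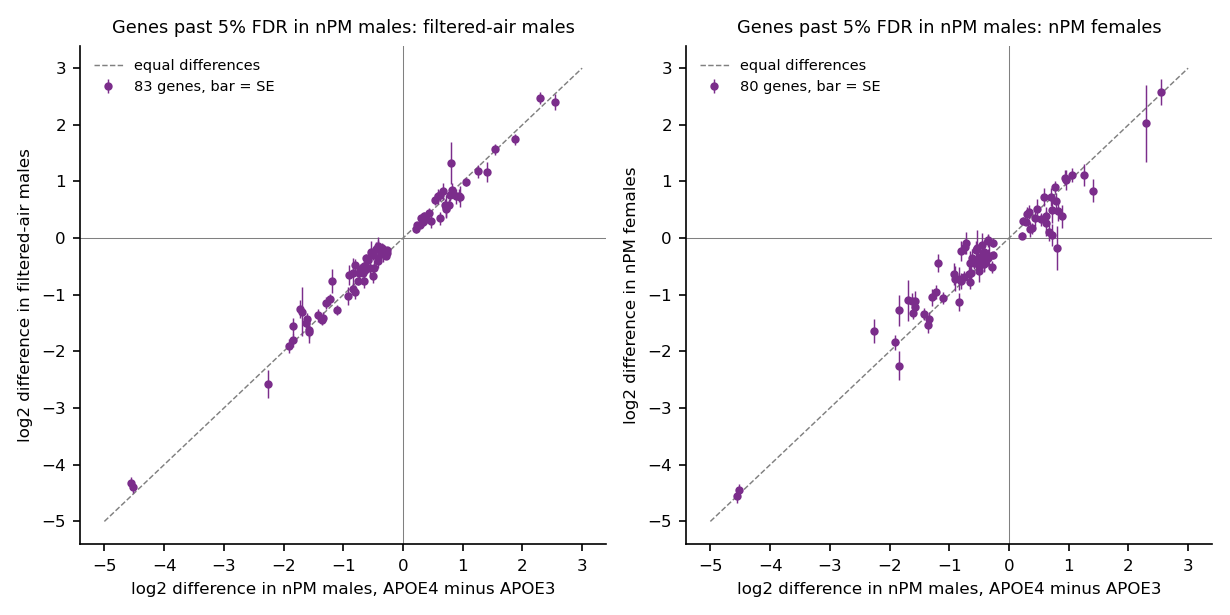
Log2 difference between *APOE*4 and *APOE*3 in nPM males (horizontal axis) against that in filtered-air males (left, 83 genes) and nPM females (right, 80 genes) for the genes past 5% FDR in nPM males, with SE bars and a dashed line of equality. All 83 points on the left and 79 of 80 on the right have the same sign on both axes.

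Whether the allele difference itself depended on exposure or on sex was tested as an interaction. In the 16 *APOE*-TR males 0 of 16578 genes passed 5% FDR for allele by exposure in limma (402 with an unadjusted p under 0.05, smallest adjusted p = 1.00), and edgeR on recovered reads also gave 0 (408). The genes with the smallest p in each direction were *Bola1* (0.58, SE 0.13) and *E030013I19Rik* (−0.63, SE 0.15). Among the 83 called genes tested, 0 passed, with 3 below an unadjusted p of 0.05. Across the 16 nPM mice 0 of 16318 genes passed for allele by sex (1300 with an unadjusted p under 0.05, smallest adjusted p = 0.618), edgeR gave 0 (1340), and the genes with the smallest p in each direction were *Fam173a* (0.36) and *Nbeal1* (−0.53). Of the 80 called genes tested there, 0 passed and 13 lay below an unadjusted p of 0.05. For *Serpina3n* the interaction was −0.18 (SE 0.25) with exposure and 0.27 (SE 0.765) with sex, and for *Flt1* −0.30 (SE 0.23) and −0.36 (SE 0.36). For *Rgs5* they were −0.22 (SE 0.10, unadjusted p = 0.0464 and adjusted p = 1.00 from limma) and −0.12 (SE 0.13). No gene, the vascular ones included, was shown to differ by allele more under nPM than in filtered air.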

How the data were processed

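Cortex RNA (stranded mRNA libraries; whether counting used strand is not given in the sources used here) was mapped by the authors to mm10 with TopHat2 2.0.8b in Partek Flow, keeping uniquely mapped reads with up to 3 mismatches. The deposited values are CPM for each gene and mouse. The step that scaled reads is not given in the sources used here. The low values were whole multiples of each column's lowest value for 95.3% to 95.7% of them (within 0.02 of a whole number, up to 20 times that value), so whole reads were recovered for the count tools. Of 18943 rows, 4 with repeated symbols were left out, and 2078 genes were not tested because 1 or more of the 8 mice lacked reads for them. At 23.3 to 31.3 M reads, 1 CPM rested on 34.4 to 45.6 reads in a mouse.

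CPM were scaled by TMM (edgeR 4.0.16), taken as log2 with 0.5 CPM added, and tested in limma 3.58.1 (R 4.3.3; lmFit, eBayes with trend), 4 against 4 mice without covariates, at 5% FDR. SDs are between mice and standard errors (SE) are from limma; the script was tested on simulated data. Alternatives were other pseudocounts, scalings, filters and variance models, voom, edgeR, DESeq2 1.42.0 and each mouse left out; removal of mice 76 and 33 was added after seeing the data. The members and gene lists were chosen with earlier results of these data known.

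Genes named are the 15 called genes of smallest p among those higher and those lower in *APOE*4, called genes in 13 pathway and 13 marker lists, the 2 with the smallest p in each list, the label checks *Apoe*, *Xist* and *Ddx3y*, the top interaction genes, and genes without reads in all mice of one allele and with at least 10 reads in all of the other, of which there were 0; all other genes were chosen after their values were seen, and 1 gene that the rule names is not reported here. Upstream windows (250 bases; RefSeq, GRCm38.p6) were aligned with Biopython 1.88, and 50-base transcript windows are from GENCODE M21. Positions are as in the files.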

Additional observations from a re-analysis of the deposited data

Results flagged for a closer look

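Of 290 groups of 4 mice tested with Dixon's ratio over 145 genes, 7.59% held 1 mouse far from the other 3, and chance gives about 1 in 20. Mouse 23 had the highest *APOE*4 values of *Serpina3n* (95.9 CPM, next 50.9), *Serpina3f* (2.57, next 1.29), *Zfp966* (1.20, next 0.801) and *Fam205a2* (3.12, next 2.79). *APOE*4 mouse 93 was highest for *Ints7* (39.1 CPM, next 32.2) and *Copz1* (55.7, next 54.7) and lowest for *2210418O10Rik* (0.232, next 0.412). Among *APOE*3 mice, mouse 76 was highest for *Ttr* (972 CPM, next 13.6), *Aqp1* (6.20, next 0.589), *Serpina3h* (3.06, next 1.51), *Bub1b* (2.31, next 1.56), *Rgs5* (94.4, next 88.8) and *Bach2* (12.8, next 11.4). *APOE*4 mouse 33 stood apart for *Ttr* (911 CPM, next 64.8) and was lowest for *Ccl21a* (0.0275, next 0.0872). *APOE*3 mouse 53 was highest for *ND6* (1085 CPM, next 902), *Tac1* (30.8, next 17.5), *Srp54a* (25.9, next 24.1) and *Gm8615* (16.4, next 10.7), and lowest for *Gm10591* (1.54, next 3.06). *Acta2* was highest in *APOE*3 mouse 56 (5.79 CPM, next 4.11) and *Dctd* in *APOE*4 mouse 65 (3.30, next 3.15).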

How the results depend on the processing

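Over 23 alternative settings, the 84 genes kept their direction wherever they were tested, and 23 of them were tested and passed 5% FDR in every setting. A gene not tested in a setting was counted as not passing. With at least 10 reads required in every mouse, 72 of the 84 were tested, and *Gm14296* and *2210418O10Rik* had fewer. DESeq2 on recovered reads called 211 genes (80 higher, 131 lower), and a spread shared over 32 *APOE*-TR mice called 42 (15 higher, 27 lower). Leaving out 1 mouse gave 53 to 104 genes (17 to 31 higher, 36 to 73 lower), with 53 without *APOE*4 mouse 93, and 46 genes passed in every such fit. Without mice 76 and 33, a setting chosen after seeing the data, 48 passed (18 higher, 30 lower). For these counts the cause was not tested. Of 773 values of 34 named genes that passed, 748 stayed past the threshold and 25 did not, of which 9 were of *Flt1* and 8 of *B2m*. Without the filter on low values limma called 87 of 18939 genes (0.459%). The interaction with exposure gave 0 genes in every setting. That with sex gave 1 with voom and 0 to 1 with 1 mouse left out (1 without *APOE*3 female 67). No paired analysis was possible because the groups compared share fewer than 2 animal numbers.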
